A study of Mus musculus with 4 samples.

Results

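The 7 genes described here carry calcium across the distal nephron of the kidney, or receive a hormone that controls this transport. They are Trpv5, Calb1, S100g, Slc8a1, Atp2b1, Atp2b4 and Pth1r, and they were taken by symbol from the 31053 genes of the count matrices. All 7 were present, each with 1 identifier. They were read in C57BL/6 mice (C57BL/6J in the protocol), 10 weeks old, that were given a single intraperitoneal dose of 10 µg of recombinant human FGF23 per mouse, the 0 h library being labelled with 0 µg.

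The study sequenced kidney cells 1, 4 and 12 h after the injection, with a 0 h library for comparison. The labels do not settle whether the 0 h mice were injected with vehicle, but the name under which that matrix was deposited reads saline and 1 h, so ratios to 0 h may be ratios to a saline control. Each time point is 1 library of the 10x 3' assay, in which a unique molecular identifier (UMI) marks each captured RNA molecule. Kidneys of male and female mice were digested together, cells passed red cell lysis and annexin V removal of dead cells, and the number of animals per library is not given. The labels name no genetic change in any group, and FGF23 and the time after it are the only labelled differences. With 1 library per time point there is no replicate, no test between times was made, and every interval below covers the counting of UMIs or cells in that library only.

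Fine control of urinary calcium takes place in the late distal convoluted tubule (DCT) and the connecting tubule (CNT). Calcium enters these cells from the urine through the TRPV5 channel, is carried across the cytosol by the binding proteins calbindin-D28k (Calb1) and calbindin-D9k (S100g), and leaves into the blood side through the sodium-calcium exchanger NCX1 (Slc8a1) and the plasma membrane calcium pumps PMCA1 (Atp2b1) and PMCA4 (Atp2b4). Parathyroid hormone, acting on its receptor PTH1R, and active vitamin D raise this transport. FGF23 is a bone hormone that lowers phosphate reabsorption and active vitamin D, and its coreceptor klotho (Kl) is best known from the same distal cells.

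The libraries held 12245 to 13813 barcodes and 139675666 to 158838728 UMIs. After filtering and removal of called doublets, 9303, 8758, 10131 and 9498 cells remained at 0, 1, 4 and 12 h, and any pair of libraries shared 36 to 57 barcodes. Cell classes were named from markers without the 7 genes. DCT-like cells carried Slc12a3, Pvalb, Trpm6 and Klhl3, and numbered 368, 327, 412 and 359 at 0, 1, 4 and 12 h. CNT-like cells carried Klk1, Hsd11b2, Scnn1b and Scnn1g, little Slc12a3 and some Aqp2, and numbered 30, 50, 70 and 54. A subcluster with markers of both was kept apart as mixed DCT/CNT cells, of which there were 42, 56, 75 and 66. A further 35, 21, 65 and 92 distal cells stayed unnamed. Of these 213, 127 formed a shallow subcluster with Klk1, and with Slc12a3 between the levels of the CNT-like and mixed subclusters. The mixed and CNT-like classes each came from 1 subcluster present in all libraries. Levels are given as CPM, a gene's UMIs for every 1000000 UMIs of the class in that library. The naming markers of the CNT-like class were not even over libraries: Slc12a3 was at 804, 72.3, 193 and 62.6 CPM at 0, 1, 4 and 12 h, Pvalb at 31, 1, 0 and 1 UMIs, Hsd11b2 at 2354, 2312, 1150 and 1312 CPM, and Aqp2 at 297, 309, 516 and 108 CPM. After thinning to 2000 UMIs, 3, 3, 6 and 4 CNT-like cells held a Slc12a3 UMI. The subclusters inside the DCT-like class were largely specific to a library: 265 of the 395 cells of one came from 0 h, 296 of 299 cells of another from 4 h, and 228 of 236 cells of another from 12 h.

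By class, the 7 genes did not share 1 pattern. Trpv5, Calb1, S100g and Slc8a1 had their highest levels, in CPM of the class, in mixed and CNT-like cells, with principal cell-like (PC-like) cells next among the named classes. Atp2b4 and Pth1r were also high in mixed and CNT-like cells but had other sites. Atp2b1 was highest outside the tubule. The mixed and CNT-like values rest on 30 to 75 cells per class and library. Median mitochondrial UMIs were 34.4% to 37.8% in mixed cells and 31.3% to 36.9% in CNT-like cells. At 0 h only 8 of 42 mixed and 1 of 30 CNT-like cells were at or under 25%.

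**Figure D1:**
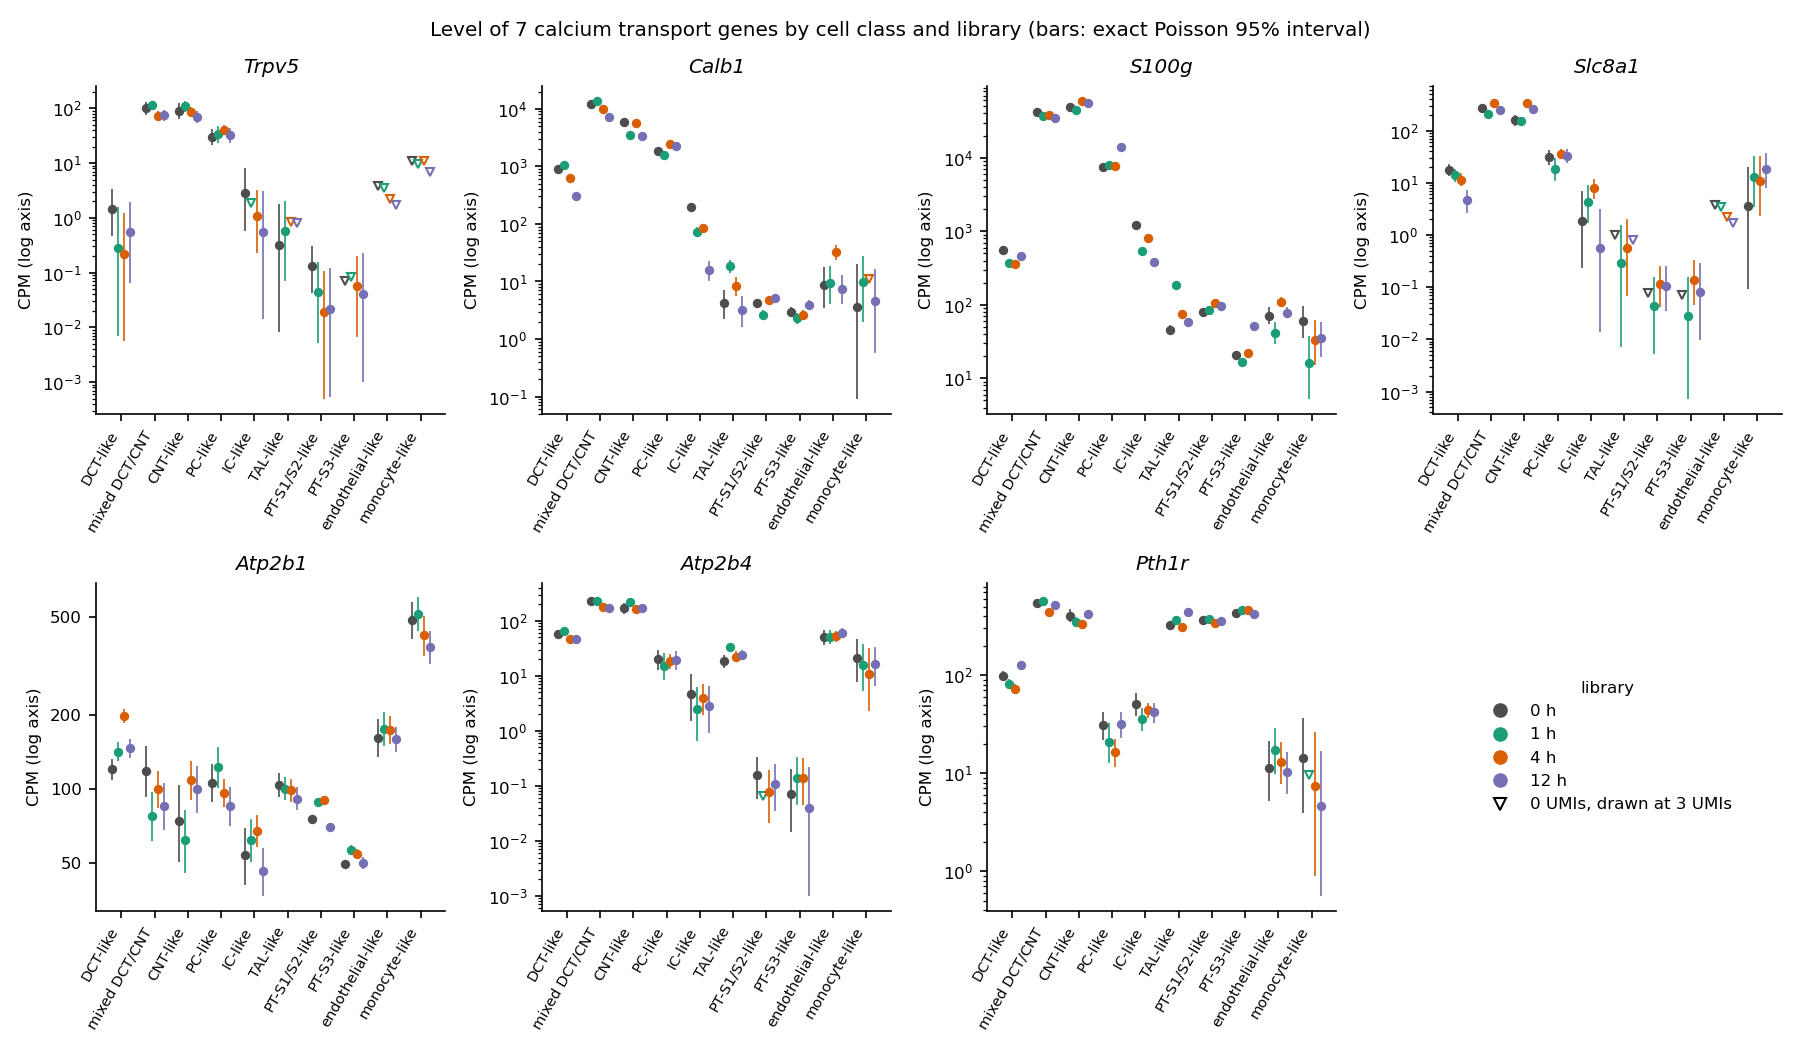
Level of each of the 7 genes (CPM, log axis) in 10 cell classes, with 1 point per library at 0, 1, 4 and 12 h after FGF23, bars for the 95% Poisson interval and open triangles for classes with 0 UMIs, drawn at the level of 3 UMIs. Trpv5, Calb1, S100g and Slc8a1 peak in the mixed DCT/CNT and CNT-like cells, while Atp2b1 and Pth1r have high points outside them.

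Trpv5, the apical entry channel, was a gene of few UMIs and of a narrow pattern. In mixed cells it stood at 100, 113, 72.7 and 73.8 CPM at 0, 1, 4 and 12 h, from 61, 111, 94 and 71 UMIs. In CNT-like cells it stood at 89.8, 109, 86.9 and 69.9 CPM in the same order. The intervals of the mixed to CNT-like ratio included no difference in all 4 libraries, so these neighbours in the order of levels were not separated. PC-like cells held 29.9, 34.0, 40.7 and 32.2 CPM, below both in every library. In the much more numerous DCT-like cells only 5, 1, 1 and 2 Trpv5 UMIs were counted in all. Endothelial-like cells, which should lack the gene, held 0 UMIs in all 4 libraries, where 3 UMIs would be 3.76, 3.47, 2.18 and 1.72 CPM. The share of cells with a Trpv5 UMI was 76.2%, 75%, 60% and 54.5% of mixed cells and 0.82%, 0.31%, 0.24% and 0.28% of DCT-like cells, with 0 of the 325, 338, 534 and 690 endothelial-like cells. Median depth was 13558 to 18464 UMIs in mixed cells and 10075 to 10898 in DCT-like cells, against 2225 to 2435 in endothelial-like cells. After thinning every cell to 2000 UMIs the share was 7.1%, 25%, 17.6% and 16.7% in mixed cells and 20.7%, 10.0%, 14.5% and 3.8% in CNT-like cells.

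Calb1, the larger cytosolic calcium buffer, had its highest level in mixed cells, at 12294, 13516, 9890 and 7087 CPM. CNT-like cells held 5892, 3509, 5581 and 3357 CPM, so the mixed cells were 2.09, 3.85, 1.77 and 2.11-fold higher within the 4 libraries. PC-like cells followed at 1831, 1588, 2496 and 2222 CPM, and DCT-like cells at 903, 1063, 626 and 311 CPM. Mixed cells lay above both their neighbours in all 4 libraries, so their Calb1 is not a value between those of DCT-like and CNT-like cells. The unnamed distal cells, 21 to 92 per library, held 11395, 9208, 6969 and 7048 CPM. Intercalated cell-like (IC-like) cells held 195, 72.4, 85.2 and 15.6 CPM, and endothelial-like cells 7.47 to 32.0 CPM.

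S100g, the smaller calcium buffer, had the opposite order at the top. CNT-like cells held 48180, 44075, 58752 and 55549 CPM, and mixed cells 41424, 36383, 37504 and 34689 CPM. The log2 ratio of mixed to CNT-like cells was -0.22, -0.28, -0.65 and -0.68 in the 4 libraries. PC-like cells held 7523, 7838, 7796 and 14062 CPM. The DCT-like level, 552, 374, 364 and 460 CPM, stood well below, while endothelial-like cells held 41.6 to 111 CPM of a transcript this abundant elsewhere in the tissue.

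Slc8a1, the basolateral exchanger, was at 267, 204, 333 and 243 CPM in mixed cells and 158.9, 150, 333 and 264 CPM in CNT-like cells. The mixed cells were thus the higher at 0 and 1 h, and at 4 and 12 h the classes were at like levels. PC-like cells held 18.6 to 35.6 CPM. DCT-like cells held 17.5, 13.9, 11.5 and 4.61 CPM from 61, 50, 52 and 17 UMIs, and endothelial-like cells 0 UMIs in all 4 libraries.

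The plasma membrane pumps differed from each other. Atp2b4 was at 226, 226, 181 and 174 CPM in mixed cells and at 170, 221, 167 and 173 CPM in CNT-like cells, and these classes were not separated in any library. It was at 57.8, 64.2, 46.1 and 46.9 CPM in DCT-like cells, a level like the 51.3 to 60.9 CPM of endothelial-like cells, and at no more than 0.157 CPM in the proximal tubule-like (PT) classes. Atp2b1, the broadly expressed pump, was highest in monocyte-like cells at 376 to 514 CPM. Of the 3 distal classes, DCT-like cells held the highest Atp2b1 level at 1, 4 and 12 h. Their levels were 120, 142, 198 and 146 CPM, those of mixed cells 118, 77.5, 99.8 and 85.3 CPM, and those of CNT-like cells 73.7, 61.8, 109 and 100 CPM. PT-S1/S2-like cells held 75.1, 88.1, 90.4 and 70.1 CPM.

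Pth1r, the receptor for parathyroid hormone, was at 542, 571, 442 and 517 CPM in mixed cells and at 403, 351, 329 and 418 CPM in CNT-like cells. The mixed cells were 1.35, 1.63, 1.35 and 1.24-fold higher. DCT-like cells stood far lower, at 98.8, 81.4, 72.4 and 128 CPM, and PC-like cells at 16.3 to 31.5 CPM. The gene was as high in other segments: 367, 376, 343 and 358 CPM in PT-S1/S2-like cells, 431, 458, 459 and 420 CPM in PT-S3-like cells, and 326, 366, 310 and 437 CPM in thick ascending limb-like (TAL-like) cells. Endothelial-like cells held 10.3 to 17.3 CPM.

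Counted as shares of each gene's UMIs in the whole library, Trpv5, Calb1, S100g and Slc8a1 lay mostly in distal and PC-like cells. Most UMIs of Atp2b1 and Pth1r lay in the far more numerous PT cells. Of all Trpv5 UMIs, 33.3%, 46.4%, 27.2% and 33.5% lay in mixed cells and 21.3%, 34.7%, 27.8% and 27.4% in CNT-like cells, with 13% to 28.1% in PC-like cells. Of all Calb1 UMIs, 36.2% to 57.0% lay in mixed cells and 6.1% to 16.5% in DCT-like cells. Atp2b4 was divided, with 20.2% to 29.1% of its UMIs in DCT-like, 19.8% to 23.8% in mixed and 10.7% to 18% in CNT-like cells. In contrast, 67.6% to 71.2% of Atp2b1 UMIs and 89.5% to 93.4% of Pth1r UMIs came from the PT classes, which held most of the cells. At 0 h, PT-S1/S2-like, PT-S3-like and PT-like cells were 40.6%, 26.6% and 4.83% of all cells. The Atp2b1 share was thus near their share of cells, and the Pth1r share above it. By CPM, DCT-like cells held more Atp2b1 than any PT class in every library. The UMI shares move with the number of cells of a class that each library captured, and the CPM do not.

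**Figure D2:**
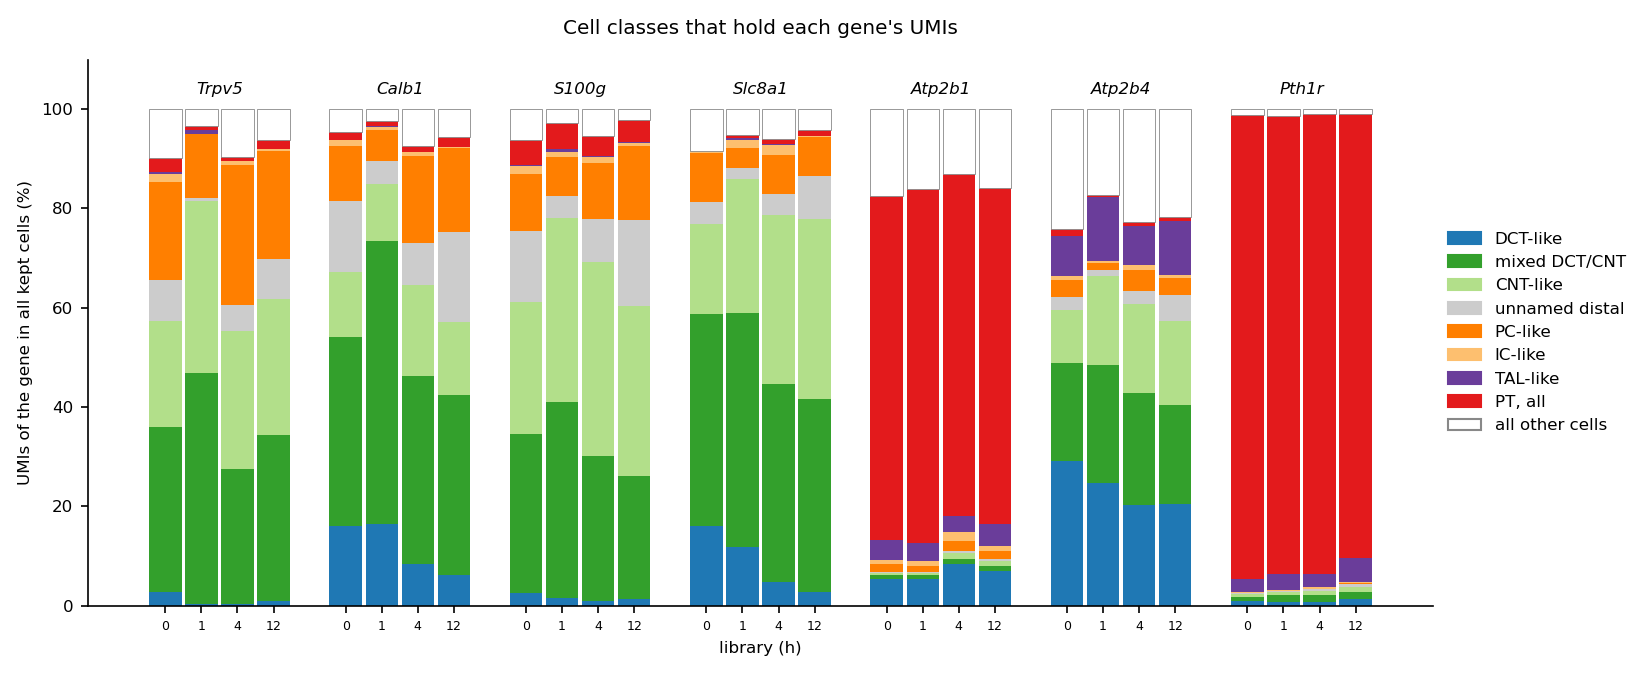
Share of each gene's UMIs (percent of all its UMIs in the library's cells, stacked) by cell class at 0, 1, 4 and 12 h. Mixed, CNT-like and PC-like cells fill most of the Trpv5 bars, while PT-like classes fill 67.6% to 71.2% of the Atp2b1 bars and 89.5% to 93.4% of the Pth1r bars.

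Likeness of pattern was measured over 68 points, the CPM of 18 classes in up to 4 libraries, among 12201 genes as Pearson's r of log2(CPM + 1). The points of a class share cell identity, and those of a library share its depth. Trpv5 was most like S100g (r = 0.932), Mymx (0.927) and Nudt11 (0.884). Calb1 was most like S100g (0.939), Mymx (0.911) and Pgam2 (0.907), and the 3 genes most like S100g were Calb1, Trpv5 and Mymx. Slc8a1 was most like Mymx (0.859), Scube3 (0.855) and Trpv5 (0.848). The other 3 genes had other partners: Plekho2 (0.874) for Atp2b1, Slc29a1 (0.844) for Atp2b4 and Cdhr5 (0.890) for Pth1r.

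The sequences before the starts of Trpv5, S100g and Slc8a1 are printed because these genes shared the mixed and CNT-like pattern, and 1 of the 3 sequences of Pth1r because it held the only match to a searched motif. Each is the 250 bases before the annotated start, read 5' to 3' on the gene's strand, from RefSeq on GRCm38.p6. Trpv5 lies at chr6:41680724-41680973, S100g at chrX:162964600-162964849, Slc8a1 at chr17:81738388-81738637 and Pth1r at chr9:110747146-110747395, all on the minus strand, and capitals mark CGTCA.
Trpv5: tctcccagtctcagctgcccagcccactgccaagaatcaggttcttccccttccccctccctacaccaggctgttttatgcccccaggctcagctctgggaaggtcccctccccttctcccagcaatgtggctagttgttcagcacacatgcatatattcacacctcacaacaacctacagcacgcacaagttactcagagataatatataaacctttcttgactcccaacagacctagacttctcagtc
S100g: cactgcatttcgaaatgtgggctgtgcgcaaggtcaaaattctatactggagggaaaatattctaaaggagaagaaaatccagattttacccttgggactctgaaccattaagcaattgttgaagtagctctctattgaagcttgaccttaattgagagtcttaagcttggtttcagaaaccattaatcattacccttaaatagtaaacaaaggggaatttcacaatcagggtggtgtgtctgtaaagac
Slc8a1: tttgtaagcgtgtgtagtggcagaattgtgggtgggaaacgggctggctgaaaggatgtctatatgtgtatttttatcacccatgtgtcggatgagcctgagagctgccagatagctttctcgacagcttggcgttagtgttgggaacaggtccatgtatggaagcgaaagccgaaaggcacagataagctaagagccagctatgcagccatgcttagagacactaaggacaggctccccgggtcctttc
Pth1r: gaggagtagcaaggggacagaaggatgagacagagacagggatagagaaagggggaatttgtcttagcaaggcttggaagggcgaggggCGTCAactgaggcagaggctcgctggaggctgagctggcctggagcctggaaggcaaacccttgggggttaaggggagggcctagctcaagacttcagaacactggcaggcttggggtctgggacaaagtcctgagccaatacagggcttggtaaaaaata

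RefSeq entries were matched for 6 of the 7 genes, leaving out Calb1. GC content was 51.6% for Trpv5, 38.4% for S100g and 50.4% for Slc8a1, against a median of 52.4% over 32851 promoters of the same length. CpG counts were 1, 2 and 8, against a median of 6. The 2 Atp2b1 entries, a gene found in most classes, were at 78.4% and 80.8% GC with 43 and 41 CpG. Motifs were searched on both strands. The cAMP response element TGACGTCA was present in 1.55% of all promoters, and its part TGACG, which overlaps it, in 17.8%. The AP-1 motif TGANTCA was present in 6.75%, the EGR motif GCGTGGGCG or GCGGGGGCG in 3.06%, and a DR3 repeat of the vitamin D receptor in 0.0396%. The only match among the 6 genes was CGTCA, the reverse complement of TGACG, 161 bases before the start in the Pth1r sequence above. A match is a description of the letters and not a measured binding site.

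In the mouse genome (GENCODE vM21 on GRCm38), Trpv5 spans chromosome 6 from 41652173 to 41680769, Calb1 chromosome 4 from 15881264 to 15908064, S100g chromosome X from 162961992 to 162964599, and Slc8a1 chromosome 17 from 81373105 to 81738377. Atp2b1 spans chromosome 10 from 98914406 to 99026143, Atp2b4 chromosome 1 from 133699457 to 133801041, and Pth1r chromosome 9 from 110722085 to 110747145. S100g is overlapped on the other strand by Ctps2, Slc8a1 by AC122399.1 and Gm11096, and Pth1r by Myl3, each reaching an exon. Atp2b4 holds Mir6903, which reaches an exon, and Gm37368 on its own strand, so reads could be shared there whatever the strand treatment. How the deposited counts treated strand is not given in the sources used here, so reads of the opposite-strand pairs could also be shared. In 3' libraries the counts reflect the 3' end of each gene, and isoforms were not told apart.

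The next question was how the genes stood after FGF23. All 3 comparisons use the same 0 h library, so a value particular to that library enters each of them. A gene was counted as different where its level in a class was at least 1.5-fold that of 0 h, or at most the inverse, with 50 or more UMIs over both libraries. In DCT-like cells 6 of the 7 genes had these UMIs, all but Trpv5. At 1 h, 0 of 6 were different, where 8.38% of all genes were. At 4 h, 3 of 6 were, against 20.3% of all genes, and at 12 h, 2 of 6, against 15.6%. In mixed cells the counts were 1 of 7 at 1 h (9.13% of all genes), 0 of 7 at 4 h (14.5%) and 1 of 7 at 12 h (15.1%). In CNT-like cells they were 1 of 7 at 1 h (11.5%), 1 of 7 at 4 h (17.8%) and 2 of 7 at 12 h (15.7%). With so few genes, shares of 0 or 1 in 7 are near these backgrounds. The median log2 ratio of the genes in DCT-like cells was -0.06, -0.49 and -0.28 at 1, 4 and 12 h, against -0.03, -0.02 and 0.00 over all genes. In mixed cells it was 0.00, -0.29 and -0.38, against 0.05, 0.04 and 0.09, and in CNT-like cells -0.13, -0.03 and 0.05, against -0.03, 0.02 and -0.03.

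**Figure D3:**
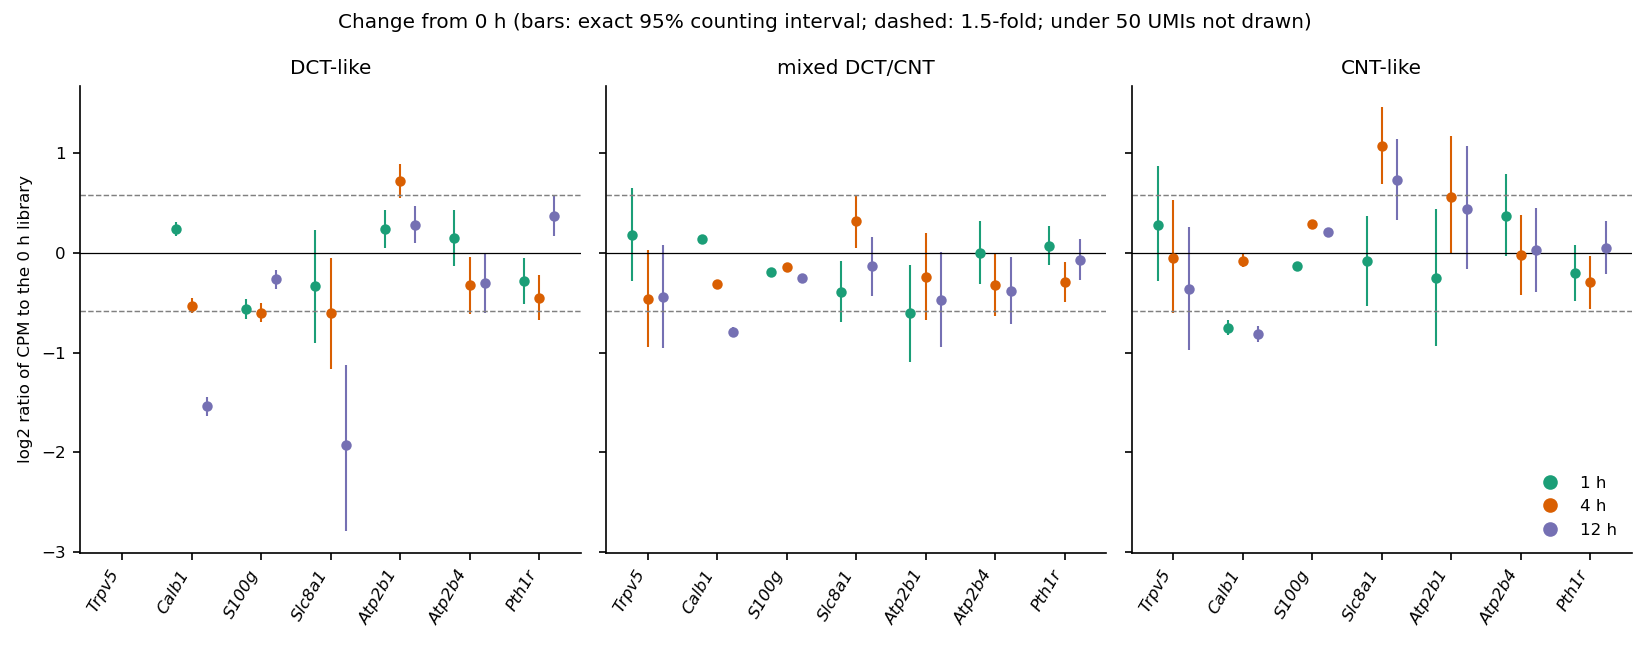
Log2 ratio of each gene's level at 1, 4 and 12 h to that at 0 h in DCT-like, mixed DCT/CNT and CNT-like cells, with 95% counting intervals and dashed lines at 1.5-fold; genes with under 50 UMIs are not drawn. Calb1 lies below the lower line at 12 h in all 3 classes, and Slc8a1 lies below it in DCT-like cells and above the upper line in CNT-like cells.

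Trpv5 was not counted as different at any time. Its log2 ratios to 0 h in mixed cells, in the order of time, were 0.18 (95% interval -0.28 to 0.65), -0.46 (-0.94 to 0.03) and -0.44 (-0.95 to 0.08). In CNT-like cells it was 0.28 (-0.28 to 0.87), -0.05 (-0.60 to 0.53) and -0.36 (-0.97 to 0.26). These intervals hold both no difference and, at several times, differences beyond 1.5-fold, which were not detectable at this depth.

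Calb1 was the only one of the 7 genes counted as lower at 12 h in all 3 distal classes. In DCT-like cells its levels over the 4 libraries were 903, 1063, 626 and 311 CPM, with log2 ratios to 0 h of 0.24 (95% interval 0.17 to 0.31), -0.53 (-0.60 to -0.46) and -1.54 (-1.64 to -1.44). The DCT-like 1 h ratio turned to -0.69 with a mitochondrial limit of 25%, from 90 cells at 0 h and 63 at 1 h. In mixed cells the ratios were 0.14 (0.10 to 0.18), -0.31 (-0.36 to -0.27) and -0.79 (-0.84 to -0.75). CNT-like cells did not follow this order, since the 0 and 4 h libraries were high and the 1 and 12 h libraries low, with ratios of -0.75 (-0.83 to -0.67), -0.08 (-0.14 to -0.01) and -0.81 (-0.89 to -0.73). PC-like cells, the other site of the gene, were not lower at 12 h, at 2222 CPM against 1831. Klk1, a naming marker of CNT-like cells, was also higher in PC-like cells at 12 h, at 3627 CPM against 2240. The part of class make-up in the PC-like Calb1 level was not tested. Without the CNT-like cells that held a Slc12a3 UMI after thinning, or were too shallow to thin, the CNT-like ratios were -0.81, -0.18 and -0.86. The CNT-like 12 h ratio was -1.72 in female-called cells and -0.16 in male-called cells, where the call did not hold. The DCT-like 12 h ratio was -0.61 where cells were split by Slc12a3 alone, which takes in the mixed cells, and -1.02 with coarser subclusters. Other naming markers of the DCT-like class were also lower at 12 h than at 0 h, Klhl3 at 192 CPM against 545 and Trpm6 at 67.2 against 147, while Slc12a3 was at 10540 against 12296. At 12 h mitochondrial UMIs were a median of 33.7% of DCT-like cells and 35.5% at 0 h, and DCT-like median depth was 10091 and 10075 UMIs. Their part in the result was not tested.

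Per cell, the DCT-like difference lay in both the cells without the transcript and those with much of it. After thinning to 2000 UMIs, 11% of DCT-like cells at 0 h held 5 or more Calb1 UMIs (95% exact binomial interval 7.98% to 14.8%), then 14.1% (10.5% to 18.4%), 8.66% (6.11% to 11.8%) and, at 12 h, 2.09% (0.844% to 4.26%). The share of cells with no Calb1 UMI was 51.3%, 48.0%, 60.1% and 71.6%. The share with any Calb1 UMI was thus 48.7%, 52.0%, 39.9% and 28.4%, and unthinned 69.0%, 72.8%, 61.7% and 53.2%. In endothelial-like cells it was 1.9% to 3.1% thinned, far below, and 1.9% to 3.4% unthinned. Among mixed cells, 90.5%, 94.6%, 89.2% and 80.3% held 5 or more, and among CNT-like cells 79.3%, 48.0%, 76.8% and 42.3%.

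Since DCT-like subclusters were library-specific, the same cells were also grouped after centring each library on its own mean, which gave 5 groups present in all libraries. Group 1, of 597 cells with Scnn1b, Ptgs1 and S100g among its leading genes, held 1167, 1510, 854 and 416 CPM of Calb1. Group 2, of 344 cells with Ptger3, Erbb4 and Egf among its leading genes, held 141, 270, 139 and 99.0 CPM. Group 3, of 262 shallow cells, held 782, 773, 635 and 269 CPM, and group 4, of 222 cells led by Jun, Fos and other immediate early genes, 1332, 936, 818 and 532 CPM. Group 5, of 41 cells with interferon response genes, held 181, 742, 403 and 162 CPM. Calb1 was lower at 12 h than at 0 h in groups 1 to 4. In group 5 it was lower by little, from only 8 cells at 0 h and 16 at 12 h. The time of its highest value differed, at 1 h in groups 1, 2 and 5 and at 0 h in groups 3 and 4. The groups were made from the same cells and are a description of them.

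**Figure D4:**
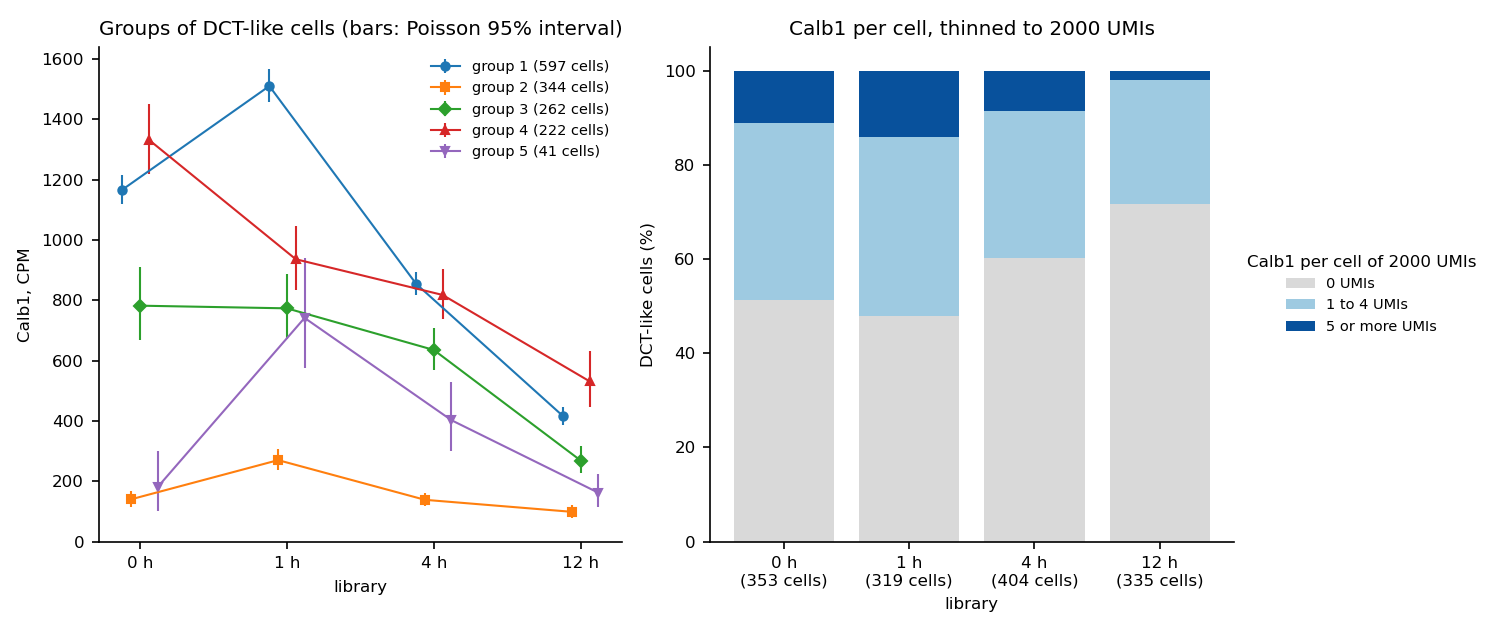
Left, Calb1 level (CPM, linear axis) in the 5 groups of DCT-like cells at 0, 1, 4 and 12 h, with 95% Poisson intervals. Right, percent of DCT-like cells with 0, 1 to 4, or 5 or more Calb1 UMIs after thinning to 2000 UMIs per cell. Groups 1 to 4 are lower at 12 h than at 0 h, and group 5 is lower by little, with only 8 cells at 0 h and 16 at 12 h. Cells with 5 or more UMIs make up 11% at 0 h and 2.09% at 12 h.

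S100g in DCT-like cells was lower at 1 h (log2 ratio -0.56, 95% interval -0.66 to -0.46) and at 4 h (-0.60, -0.70 to -0.51), the latter past 1.5-fold, and -0.26 at 12 h. In mixed cells it was -0.19, -0.14 and -0.26. In CNT-like cells the 3 ratios were -0.13 (-0.15 to -0.10), 0.29 (0.26 to 0.31) and 0.21 (0.18 to 0.23), so it stood higher where Calb1 stood lower at 12 h. In PC-like cells it was higher at 12 h, at 14062 CPM against 7523, a log2 ratio of 0.90 (0.87 to 0.94). Distal naming markers were not even in PC-like cells either. Between 0 and 12 h Klk1 was at 2240 and 3627 CPM and Slc12a3 at 4 and 20 UMIs. Hsd11b2 was at 5458 and 5456 CPM, and Klhl3 was lower, at 39.1 and 23.1 CPM. The part of class make-up in the PC-like S100g ratio was not tested. The endothelial-like level was 71.4, 41.6, 111 and 77.6 CPM in the 4 libraries, against 552, 374, 364 and 460 CPM in DCT-like cells. It is only a rough guide to free S100g RNA, which was not estimated, and its part in the DCT-like ratio was not tested. The 4 h call did not hold where DCT-like cells were defined by Slc12a3 alone, which takes in the mixed cells (0.32), or by coarser subclusters (0.19). The DCT-like 12 h ratio ran from -1.02 with a mitochondrial limit of 25% to 1.02 with coarser subclusters. Female-called DCT-like cells held 547 CPM at 0 h and 576 at 12 h, and male-called cells 662 and 343 CPM.

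Slc8a1 differed in opposite directions in the classes. In CNT-like cells its levels were 158.9, 150, 333 and 264 CPM, with log2 ratios of -0.08 (95% interval -0.53 to 0.37), 1.07 (0.69 to 1.46) and 0.73 (0.33 to 1.14). In mixed cells the ratios were -0.39 (-0.70 to -0.08), 0.32 (0.05 to 0.59) and -0.13 (-0.43 to 0.16). The mixed ratios differed by sex, at -0.90 in female-called and 0.29 in male-called cells at 1 h, and -0.006 and 0.89 at 4 h. In DCT-like cells Slc8a1 was lower, with ratios of -0.61 (-1.17 to -0.05) at 4 h and -1.92 (-2.79 to -1.13) at 12 h, from 61 UMIs at 0 h and 17 at 12 h. The CNT-like levels at 4 and 12 h were above both earlier ones. The CNT-like class at 0 h held 30 cells, the fewest of the 4. Without the cells that held a Slc12a3 UMI after thinning, or were too shallow to thin, the CNT-like ratios were 1.01 at 4 h and 0.65 at 12 h. The DCT-like difference at 4 h was past 1.5-fold in only 4 of 15 alternatives. When cells were split by Slc12a3 alone, the ratios of Slc8a1 on the side with Slc12a3, which then held the mixed cells, were 0.52 at 4 h and 0.08 at 12 h.

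Of the pumps and the receptor, only Atp2b1 was counted as different in a distal class. It was higher in DCT-like cells at all 3 times, with log2 ratios of 0.24 (95% interval 0.05 to 0.43), 0.72 (0.55 to 0.89) and 0.28 (0.09 to 0.47), of which that at 4 h was past 1.5-fold. In mixed cells it was lower at 1 h, at -0.61 (-1.09 to -0.12). At 4 h groups 1 and 2 of the DCT-like cells held 218 and 194 CPM of Atp2b1, against 121 and 128 CPM at 0 h. Atp2b4 was not counted as different in any distal class, with DCT-like ratios of 0.15, -0.33 and -0.30. Pth1r was also not counted, with DCT-like ratios of -0.28, -0.45 (-0.67 to -0.23) and 0.37 (0.17 to 0.57), below 0 h at 1 and 4 h and above it at 12 h.

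Cells could be called female or male by their own X and Y transcripts, and the share of female cells among called DCT-like cells was 69.9%, 61.9%, 50.3% and 48.1%. Among called mixed cells it was 72.2%, 40.4%, 47.1% and 50%, with 26 female and 10 male cells at 0 h. In DCT-like cells Calb1 was at 971, 1257, 774 and 317 CPM in female cells and at 801, 830, 532 and 289 CPM in male cells. Female cells were the higher in all 4 libraries, with intervals apart from no difference at 0, 1 and 4 h, and the 12 h level was the lowest in both sexes. In CNT-like cells Calb1 was at 7590, 3302, 4014 and 2311 CPM in female and at 4850, 3674, 6544 and 4340 CPM in male cells, so the sexes were in different order at 0 h and later. The male 12 h to 0 h log2 ratio was -0.16 and the female -1.72. Slc8a1 in CNT-like cells was at 236, 172, 299 and 202 CPM in female cells and at 109, 122, 352 and 352 CPM in male cells. The higher 12 h level of the class was thus seen in male cells, and the female ratio was -0.22. Called CNT-like cells numbered only 12 female and 15 male at 0 h and 20 to 30 of each sex later. The cells of a sex in a library come from an unknown number of animals.

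**Figure D5:**
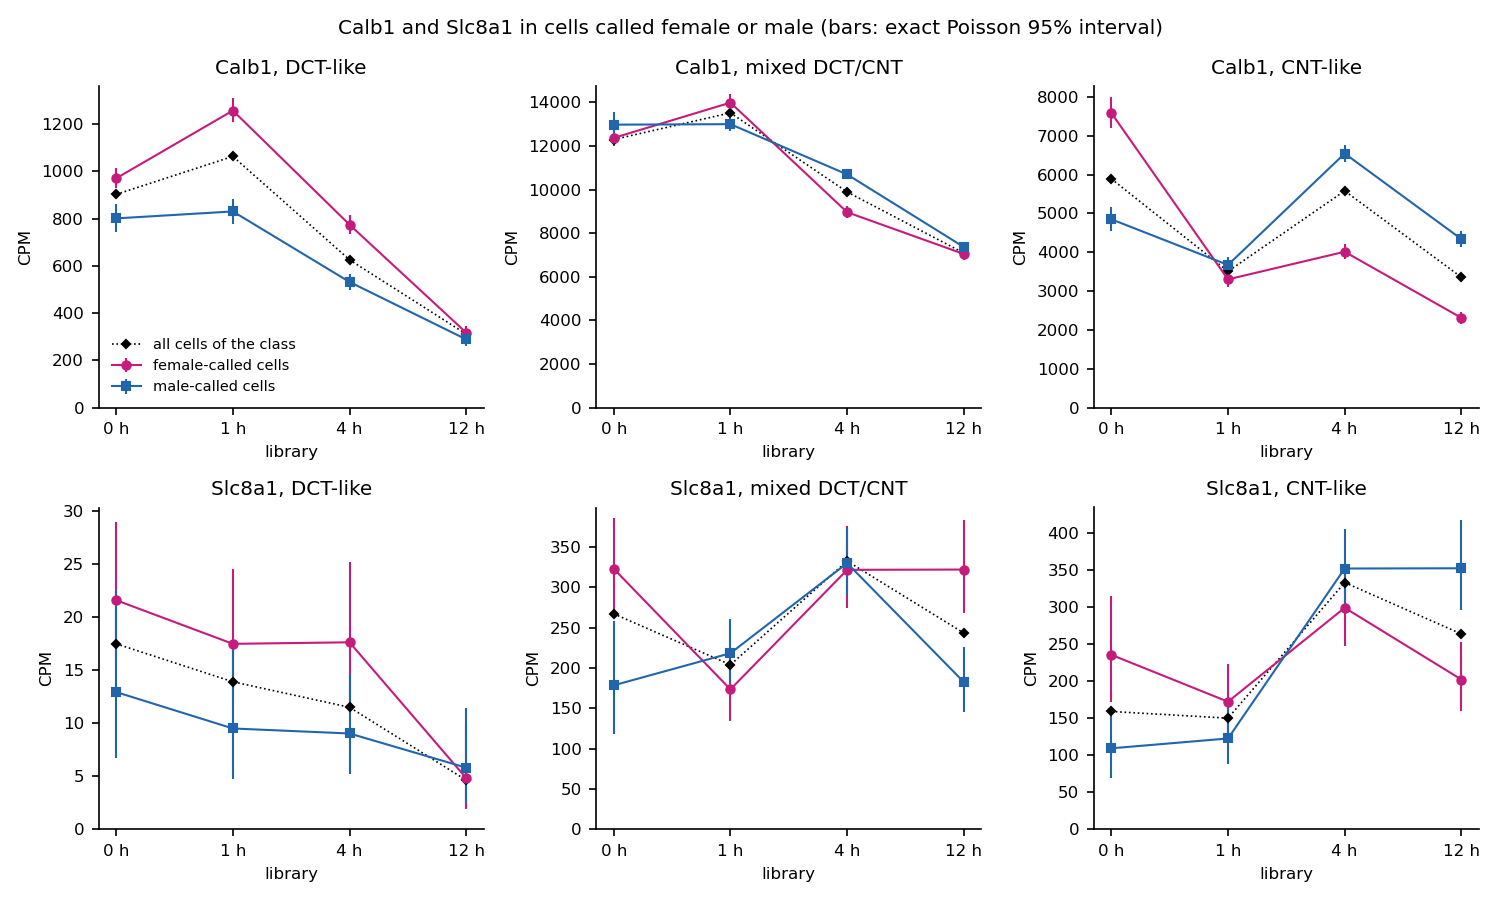
Level of Calb1 and Slc8a1 (CPM) in female-called and male-called cells of 3 distal classes at 0, 1, 4 and 12 h, with 95% Poisson intervals and dotted black lines for all cells. Calb1 in DCT-like cells is lowest at 12 h in both sexes, and Slc8a1 in CNT-like cells at 12 h is 202 CPM in female and 352 CPM in male cells.

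In TAL-like and IC-like cells, the levels of Calb1 and S100g differed between libraries. In TAL-like cells at 1 h, Calb1 was at 18.4 CPM against 4.23 at 0 h, from 65 and 13 UMIs (log2 ratio 2.12, 95% interval 1.25 to 3.11). S100g there was at 186 CPM against 45.5, from 654 and 140 UMIs (2.03, 1.76 to 2.30). In the same libraries endothelial-like Calb1 was at 8.76 CPM at 0 h and 9.25 at 1 h, and S100g at 71.4 and 41.6 CPM, so these were not higher at 1 h. The TAL-like UMIs at 1 h are those of 369 cells, while only 50 CNT-like cells there held 2668 Calb1 and 33515 S100g UMIs. The part of single stray distal cells in the TAL-like values was not tested, and the counting intervals do not cover it. Also in TAL-like cells, Atp2b4 was higher at 1 h (0.86, 0.40 to 1.35) and Pth1r at 12 h (0.42, 0.31 to 0.54, under 1.5-fold). In IC-like cells, Calb1 was at 195 CPM at 0 h and 15.6 at 12 h, and S100g at 1213 and 376 CPM. The IC-like S100g values rest on 1290 UMIs in 76 cells at 0 h and 676 UMIs in 133 cells at 12 h, and have the same limit.

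The wider genes of distal calcium handling were read from 5 lists, on other calcium transporters and binding proteins, TRPV5 regulators, parathyroid hormone receptor signalling, vitamin D response, and calcium sensing with paracellular calcium. In DCT-like cells 41 to 43 of these genes had enough UMIs. Of them 2 were higher and 1 lower at 1 h, 5 higher and 4 lower at 4 h, and 5 higher and 6 lower at 12 h, where 3.68% and 4.69%, 9.46% and 10.8%, and 7.96% and 7.67% of all genes were higher and lower. In mixed cells, with 24 to 26 genes, the counts were 2 and 2, 2 and 3, and 5 and 3, against 5.73% and 3.4%, 7.24% and 7.29%, and 9.93% and 5.16% of all genes. In CNT-like cells, with 22 to 24 genes, they were 3 and 0, 4 and 3, and 2 and 1, against 6.5% and 5.03%, 9.77% and 8%, and 7.76% and 7.92%. Over the 9 comparisons of a class and time, 4 calcium transporter or binding genes were counted as higher and 1 as lower of 62 tested, 12 and 11 TRPV5 regulators of 70, 11 and 6 genes of receptor signalling of 91, 3 and 4 of the vitamin D list of 31, and 0 and 1 of the last list of 15. A gene counts once for each comparison here, and 8.38% to 20.3% of all genes were past 1.5-fold in these comparisons. In DCT-like cells at 12 h the median log2 ratios of the lists were 0.25, 0.13, -0.07, -0.05 and -0.03 in that order, against 0.00 over all genes. In CNT-like cells at 12 h, with 6, 6, 8, 1 and 1 genes in the lists, they were 0.30, -0.30, 0.09, 0.85 and -0.21, against -0.03. The last 2 values are thus those of single genes, the 0.85 being Vdr alone, and describe no list.

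Among regulators of TRPV5, the kinase Sgk1 was at 17.8, 48.6, 11.04 and 1.36 CPM in DCT-like cells and 145, 142, 16.3 and 6.02 CPM in CNT-like cells, a 12 h log2 ratio of -3.71 (95% interval -5.38 to -2.41) and -4.59. It is an immediate early gene, and was at 1176 to 1409 CPM in endothelial-like cells. S100a10, a binding partner of TRPV5 on the way to the membrane, was at 123 CPM in DCT-like cells at 0 h and 561 at 4 h (2.19, 2.05 to 2.34), and 380 at 12 h. Its partner Anxa2 was at 1.15 CPM at 0 h and 31.6 at 4 h, from 4 and 143 UMIs, and 14.4 at 12 h. Endothelial-like cells held 979 to 1106 CPM of S100a10 and 562 to 678 CPM of Anxa2 in all libraries. Klotho, which stabilizes TRPV5 at the surface, was at 757, 729, 558 and 371 CPM in DCT-like cells and at 3437, 3275, 2820 and 1993 CPM in mixed cells, with 12 h ratios of -1.03 (-1.13 to -0.94) and -0.79. In CNT-like cells Kl was at 2790, 2862, 3005 and 2152 CPM. Umod, secreted by the thick ascending limb, was at 978, 464, 427 and 241 CPM in mixed cells, while endothelial-like cells, which do not make it, held 28.9 to 217 CPM.

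Wnk4, a kinase of distal salt and calcium transport, was at 384, 438, 493 and 385 CPM in DCT-like cells. The vitamin D receptor gene Vdr was at 380, 464, 684 and 683 CPM in CNT-like cells, a log2 ratio of 0.85 at 4 h (95% interval 0.60 to 1.10) and 0.85 at 12 h. In mixed cells it was at 462, 447, 636 and 830 CPM, and in DCT-like cells at 172, 241, 253 and 213 CPM. Other list genes past 2-fold in DCT-like cells were the scaffold gene Slc9a3r2 at 4 h (1.88) and the kinase gene Prkca at 12 h (1.58), both higher, and the arrestin gene Arrb1 at 4 h (-1.36) and the mitochondrial exchanger gene Slc8b1 at 12 h (-1.32), both lower. In CNT-like cells they were Gna11, a G protein subunit, at 4 h (1.05), Prkar2a, a subunit of protein kinase A, at 1 h (1.01), and Umod at 1 h (1.12), all higher. Trpv6, the relative of Trpv5, was too low to compare, with 6, 14, 11 and 6 UMIs in mixed cells.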

How the data were processed

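Single kidney cells were profiled with the 10x 3' V3 assay, 1 library per time point. The deposited matrices hold raw UMI counts per gene and barcode. Per the submitters' processing notes, Cell Ranger 3.1.0, STAR, Seurat and the build mm10 were used; their roles, settings and treatment of strand are not given in the sources used here. Of the 31053 gene identifiers, 30934 (99.6%) matched GENCODE vM21.

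Barcodes with at least 300 genes and at most 50% mitochondrial UMIs were kept (10123, 9477, 11120 and 10356). Doublets were called from simulated pairs of cells at 0.8% per 1000 cells and removed (8.10%, 7.59%, 8.89% and 8.29%), and a cluster made up mostly of such calls was left unnamed. Cells were clustered on the libraries' variable genes without the 7 genes, the wider calcium lists, and immediate early, sex, mitochondrial and ribosomal genes unless they were markers (48 clusters by Leiden at resolution 1.5, with 30 components and 20 neighbours), and 2122 distal cells again (12 subclusters at resolution 1 with 15 components). A subcluster of at least 50 cells was named from 4 DCT and 5 CNT markers, each on where its level reached that of the highest such subcluster divided by 4. DCT-like needed 2 or more DCT and at most 1 CNT marker on, mixed 2 or more of both, and CNT-like 3 or more CNT markers. This rule was set after the subclusters were seen, and 1 shallow DCT-like subcluster of 242 cells had 2 DCT markers on. Names rebuilt here may differ from the submitters' own.

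The UMIs of all cells of a class in a library were added up and scaled to CPM. Intervals are 95% exact Poisson for levels, exact conditional binomial for ratios and Clopper-Pearson for shares, and cover counting error only. Shares of cells were also computed after thinning each cell to 2000 UMIs, leaving out shallower cells. A count of 0 UMIs allows a level of up to 3 UMIs. With 1 library per group there was no test. The code was checked on simulated data.

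The 7 genes, the lists and the tests were chosen with earlier results of these data known. Genes beyond the 7 were named by rule: the 3 most alike by Pearson's r among genes with at least 500 UMIs, list genes past 2-fold in DCT-like or CNT-like cells (up to 3 a list and direction), and Kl, Sgk1, Wnk4, Klk1, Vdr and Trpv6. Klk1 served for naming and is not reported as a result. Software was Python 3.11.15 with numpy 2.4.6, scipy 1.17.1, scikit-learn 1.9.0, leidenalg 0.10.2, igraph 0.11.9 and matplotlib 3.10.9. A 24 h time point in the study's protocol is not analysed here.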

Additional observations from a re-analysis of the deposited data

Results flagged for a closer look

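Slc8a1, the sodium-calcium exchanger of the basolateral membrane, stood on opposite sides of its 0 h level in DCT-like and CNT-like cells. At 4 h its log2 ratio to 0 h was -0.61 in DCT-like and 1.07 in CNT-like cells, a difference of -1.67. At 12 h it was -1.92 and 0.73, a difference of -2.65. Each class is 1 library per time, so the difference was not tested. The direction turned under some alternatives: the CNT-like ratio at 12 h was -0.22 in female cells, and the DCT-like ratio was 0.52 at 4 h and 0.081 at 12 h where cells were split by Slc12a3 alone, which adds the mixed cells. The DCT-like values rest on 61, 52 and 17 UMIs at 0, 4 and 12 h.

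Pth1r, the parathyroid hormone receptor gene, went in opposite directions in female-called and male-called CNT-like cells at 12 h. The female level was 576 CPM at 0 h and 346 at 12 h, a log2 ratio of -0.74, and the male level was 271 and 496 CPM, a ratio of 0.87. The difference of the ratios was -1.61, from 12 female and 15 male cells at 0 h and 24 and 23 at 12 h, and was not tested. In all CNT-like cells the gene was at 403 and 418 CPM.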

How the results depend on the processing

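No paired analysis was possible because each time point is 1 library, and for the same reason no library could be left out of a group. The number of the 7 genes past 1.5-fold stayed within 1.5 times of its value in 108 of 144 alternatives. The share of all genes past the threshold was not counted under the alternatives, so their counts have no background beside them. In the other 36 it moved as follows, in the order DCT-like, mixed, CNT-like where several are given. A threshold of 2-fold left 0 genes in DCT-like cells at 4 h (from 3), mixed cells at 1 and 12 h (from 1) and CNT-like cells at 1 h (from 1) and 12 h (from 2). A minimum of 200 UMIs left 1 in DCT-like cells at 12 h (from 2) and 0 in mixed cells at 1 h. In DCT-like cells at 1 h the count of 0 became 3 with a mitochondrial limit of 25%, 2 with cells weighted equally, and 1 with doublet calls kept, female cells only, the Slc12a3 split, subclusters made with the 7 genes, a lower resolution, cells of at least 8000 UMIs, or the endothelial-like level subtracted. In DCT-like cells at 4 h the count of 3 became 1 with size factors or a lower resolution, 0 with the Slc12a3 split and 5 with subtraction, and at 12 h the count of 2 became 1 with the Slc12a3 split. In mixed cells at 1 h the count of 1 became 0 with doublets kept, male cells, subtraction or the shallow Klk1 subcluster added, and 2 in female cells. The mixed count of 0 at 4 h was 5 in female cells, all lower, from 26 cells at 0 h and 33 at 4 h. In male cells it was 1, Slc8a1, which was higher. The mixed count of 1 at 12 h was 3 in female cells and 2 with subtraction. In CNT-like cells the count of 1 was 3 in female cells at 1 and 4 h, and 2 at 4 h with doublets kept, size factors, the Slc12a3 split or subclusters made with the 7 genes. With a minimum of 10 UMIs the wider lists gave 7 (from 3) and 21 (from 11) genes in DCT-like cells at 1 and 12 h, 12 (from 4), 12 (from 5) and 15 (from 8) in mixed cells, and 10 (from 3), 16 (from 7) and 11 (from 3) in CNT-like cells; DCT-like cells at 4 h did not move. Calls that reversed were Slc8a1 in CNT-like cells at 12 h in female cells only (log2 ratio -0.22), S100g in DCT-like cells at 4 h with the Slc12a3 split (0.32) and at lower resolution (0.19), and Slc8a1 in DCT-like cells with the Slc12a3 split at 4 h (0.52) and 12 h (0.081); that split adds the mixed cells to the DCT-like side, and the cause of the others was not tested. Calb1 stayed past 1.5-fold at 12 h in all 15 alternatives in DCT-like cells (-1.93 to -0.61) and all 11 in mixed cells (-0.87 to -0.79), and in 12 of 13 in CNT-like cells (-1.72 to -0.16), male cells being the exception. Slc8a1 in CNT-like cells at 4 h was past it in 12 of 13 (0.34 in female cells to 1.69 in male cells). Leaving out the shallow DCT-like subcluster with 2 markers on gave 0, 2 and 2 genes in DCT-like cells, without Slc8a1 at 4 h (-0.53). The mitochondrial limit of 25% gave no value in mixed and CNT-like cells, with under 10 cells at 0 h. Keeping doublet calls returned only the 6, 3, 8 and 9 calls inside clusters named distal. A cluster of 360 cells, mostly doublet calls and nearest to the distal class by markers, stayed out. The effect of leaving out that cluster was not tested. Subtraction moved the median of all genes by -0.11 and -0.12 in DCT-like cells at 4 and 12 h and by -0.13 in CNT-like cells at 12 h, and size factors by 0.11 there. The 8000 UMI, Klk1 subcluster, subtraction, CNT-like Slc12a3 and DCT-like 2-marker subcluster alternatives were chosen after seeing the data. Depth limits Trpv5 and Trpv6 in every class, and Slc8a1 in DCT-like cells.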
